A study of Mus musculus with 18 samples.

Results

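The genes described here are the G1 cyclins Ccnd1, Ccnd2, Ccnd3, Ccne1 and Ccne2, the cyclin-dependent kinases Cdk2, Cdk4 and Cdk6, and the E2F transcription factors E2f1 and E2f3. They were taken by symbol, as every probe set that the annotation of the array assigns to one of these symbols alone, which gave 10 of 18194 genes and 29 of 45101 probe sets. Ccnd2 had 7 probe sets, Ccnd1, Ccnd3, Cdk4, Cdk6 and E2f1 had 3 each, Ccne1, Cdk2 and E2f3 had 2 each and Ccne2 had 1. Satellite cells, the muscle stem cells that lie beneath the basal lamina of the fiber, were sorted by flow cytometry for syndecan-3 from the tibialis anterior muscle and profiled on Affymetrix mouse arrays. Muscles were uninjured, or had been injected with 1.2% barium chloride 12 h or 48 h earlier. Wild type (WT) mice were C57Bl/6 x DBA2 and Sdc4-/- mice, which carry a homozygous null allele of syndecan-4, were C57Bl/6, so that genotype and strain cannot be told apart. All mice were female, of 3 to 6 months by the labels, and the RNA of every sample went through T7-based amplification before labelling. Each of the 6 groups had 3 arrays, and WT uninjured replicate 3 was left out, so that this group held 2. The study dropped 1 such array because its expression profile grouped with the WT 12 h arrays, a choice made on the measured values that removes an uninjured array near the 12 h level. The methods do not number that array, and replicate 3 was taken for it: its correlation with the WT 12 h arrays over all probe sets was 0.623 to 0.784, against 0.501 to 0.682 for replicates 1 and 2. The labels do not say whether the samples of a group came from separate animals, so the p-values speak only of sample-to-sample spread, which may be technical.

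In a resting cell the retinoblastoma protein and its relatives hold E2F factors silent. Mitogens induce D cyclins, which pair with Cdk4 or Cdk6 and begin to phosphorylate the retinoblastoma protein. The E2F factors thus released switch on E cyclins and the enzymes of DNA replication, and cyclin E with Cdk2 completes the phosphorylation, after which a cell enters S phase. Satellite cells rest outside the cycle in uninjured muscle and enter it after injury, which makes the order of these steps a natural question for samples taken 12 h and 48 h post-injury.

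The array values bear on what the samples hold. The values are on the log2 scale, and those near the background of the arrays, about 2 to 3, have no reliable order. The 3′ control probe set of the actin gene Actb read 11.81, 3.98 and 8.37 in WT 12 h replicates 1 to 3. All other arrays of the fit read 11.57 to 13.38 with it. The 3′ control of Gapdh read 4.64 in WT 12 h replicate 2 and 7.73 to 10.96 in the remaining arrays of the fit. The part of this low signal in the WT 12 h values was not tested. Counts of probe sets brighter than 5 on that scale ran from 2832 to 3982 in the WT 12 h arrays, from 5076 to 5565 in the Sdc4-/- 12 h arrays and from 5123 to 7864 in the other groups, and the mean of the hybridization controls, bacterial RNAs added to each sample, was 13.54 to 14.30 in the WT 12 h arrays against 7.86 to 12.50 in all other arrays of the fit. Of 14 satellite cell markers 4 had a group mean above 5 in WT uninjured cells and 0 in WT 12 h cells, and Pax7, the defining transcription factor of satellite cells, had a group mean of 4.87 in WT uninjured cells and no more than 2.60 in any other group. The mean over 10 macrophage and monocyte markers was 5.21 to 8.38 in WT uninjured arrays, 4.01 to 4.50 in WT 12 h arrays and 7.66 to 9.80 in the other groups. The mean over 6 fibroblast markers was 7.68 to 8.41 in WT uninjured arrays and at most 6.64 elsewhere. Sdc4 itself read 5.59 to 7.62 with 1417654_at in WT 48 h arrays and 2.41 to 2.60 in all Sdc4-/- arrays, but its second probe set read up to 6.53 in Sdc4-/- arrays and WT uninjured arrays were at 2.36 and 3.57 with 1417654_at. In such bulk samples fewer cells of a type and less RNA per cell cannot be told apart.

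At 12 h post-injury Ccnd1 fell in WT cells while Ccne1, Cdk2 and E2f3 each had a probe set that rose. All 5 probe sets called lower belonged to Ccnd1 and Ccnd2, while the 5 called higher were 1 each of Ccnd2, Ccnd3, Ccne1, Cdk2 and E2f3. "Called" here means an adjusted p under 0.05 (Benjamini-Hochberg, over all 45101 probe sets) in a limma fit of the 6 groups, and higher or lower refers to the later time. By the same rule 23.3% of all probe sets were called higher and 14.2% lower in this comparison, so that 5 of 29 (17.2%) in each direction is not far from the array as a whole. The median change of the 29 probe sets was 0.11, against 0.15 over all probe sets. The 5 called higher had WT uninjured means of 2.73 to 3.02, at or close to background. A filter at a mean of 4 over the 17 arrays kept 10 of the 29 probe sets and none of these 5. Under it 0 were called higher and 2 lower. When each array was shifted by its 75th percentile the calls were 10 higher and 5 lower. With WT uninjured replicate 3 put back, 5 of the 10 calls remained (Ccnd1 1417420_at, Ccnd2 1416122_at, Ccne1 1416492_at, Cdk2 1447617_at and E2f3 1427462_at).

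By 48 h the pattern in WT cells had changed. Against uninjured cells 3 probe sets were called higher (Ccnd3, Cdk6 and Cdk2), where 5.35% of all probe sets were, and 5 lower (1 of Ccnd1 and 4 of Ccnd2), where 7.12% were. Without WT uninjured replicate 1 the count was 3, of which 2 were among these 8 calls (Ccnd2 1416122_at and Cdk6 1435338_at), and the shift by the 75th percentile gave 11 higher and 5 lower. Of the calls over all probe sets 85.3% were higher under that shift, against 42.9% as deposited. With WT uninjured replicate 3 put back, 2 of the 8 remained (Ccnd2 1455956_x_at, adjusted p = 0.0240, and Cdk6 1435338_at, adjusted p = 0.00520). From 12 h to 48 h Ccnd1 and Cdk6 were called higher with 1 probe set each, beside 5.74% of all probe sets, and Ccnd2 and Cdk2 lower with 1 each, beside 6.62%. Without WT 12 h replicate 1 the calls in this interval numbered 8 in place of 4.

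Sdc4-/- cells had few calls at 12 h, and all their calls at 48 h were higher. At 12 h limma called 0 of the 29 probe sets higher, where 1.26% of all were called, and 1 lower, a probe set of Ccnd2, where 5.15% were. At an unadjusted p under 0.05 these counts were 1 and 3, an analysis of variance without moderation called 0 in either direction, and the shift by the 75th percentile gave 7 higher and 1 lower. Of the calls over all probe sets 87.2% were higher under that shift, against 19.6% as deposited. At 48 h against uninjured cells 3 were called higher (2 of Ccnd1 and 1 of Cdk6) beside 2.18% of all probe sets, and 0 lower beside 2.31%, with 1 lower at an unadjusted p under 0.05 and 0 without moderation. From 12 h to 48 h 5 were called higher (2 of Ccnd1, 1 each of Cdk4, Cdk6 and E2f1) beside 5.28%, and 0 lower beside 0.703%, with 1 lower at an unadjusted p under 0.05 and 0 without moderation. Leaving out Sdc4-/- 12 h replicate 1, Sdc4-/- 48 h replicate 2 or Sdc4-/- 48 h replicate 3 reduced these 5 calls to 3. The shift by the 75th percentile gave 5 higher and 1 lower. Over all probe sets 26.2% of the calls in this interval were higher under the shift, against 88.3% as deposited.

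Genotypes were compared by an interaction contrast, the change in Sdc4-/- cells minus that in WT cells. For the 12 h change 3 probe sets were called higher (1 of Ccnd1 and 2 of Ccnd2) beside 4.37% of all probe sets, and 2 lower (Ccne1 and Cdk2) beside 6.72%. For the 48 h change 2 were called higher (Ccnd1 and Ccnd2) beside 2.92%, and 0 lower beside 1.17%, with 2 lower at an unadjusted p under 0.05 and 0 without moderation. None of the 7 differences kept its call with WT uninjured replicate 3 put back (adjusted p from 0.108 to 0.453). The 12 h difference had 2 calls without WT uninjured replicate 1 and 3 without any 1 of 7 other arrays, among them WT 12 h replicate 3, WT 48 h replicate 2 and each Sdc4-/- 48 h array.

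**Figure D1:**
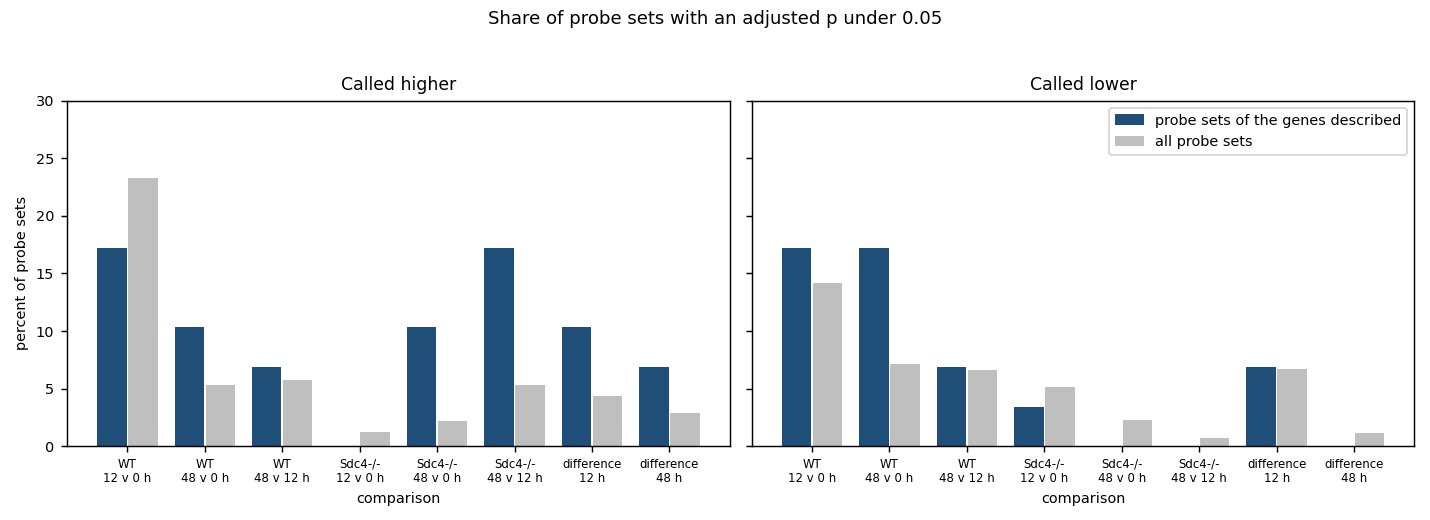
Percent of probe sets called higher (left) and lower (right) in each comparison, for the 29 probe sets of the G1 cyclins, kinases and E2F factors (blue) and for all 45101 probe sets (grey). At 12 h in WT cells the blue bars lie near the grey ones, of 23.3% and 14.2%, and from 12 h to 48 h in Sdc4-/- cells 5 of 29 were called higher beside 5.28%.

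Ccnd1 encodes cyclin D1, the D cyclin that links growth factor signals to Cdk4 and Cdk6. Its brightest probe set, 1448698_at, was lowest at 12 h and highest at 48 h in both genotypes, and its 3 probe sets differed in pattern. Probe set 1448698_at read 5.87 and 5.01 in the WT uninjured arrays, 3.48, 2.21 and 3.50 at 12 h, and 6.53, 6.33 and 5.31 at 48 h. In Sdc4-/- arrays it read 4.17, 3.72 and 3.65 when uninjured, 2.57, 2.87 and 3.22 at 12 h, and 5.82, 6.83 and 6.30 at 48 h. Every 12 h array was below every uninjured and every 48 h array of its genotype in the fit, and the 12 h arrays of both genotypes lay at or close to background.

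At 12 h in WT cells 1448698_at fell by 2.38 on the log2 scale (SE 0.47, adjusted p = 0.00217). With WT uninjured replicate 3, at 2.40, put back, the change was -1.36 and was not called (adjusted p = 0.168). The Sdc4-/- change at 12 h was -0.96 (SE 0.42, adjusted p = 0.228) and was not called. From 12 h to 48 h the rise was 3.00 in WT cells (SE 0.42, adjusted p = 0.000561) and 3.43 in Sdc4-/- cells (SE 0.42, adjusted p = 0.000702). Its group means spanned 3.43, the widest span among the brightest probe sets of the 10 genes. Against uninjured cells the 48 h rise was called in Sdc4-/- cells (2.47, SE 0.42, adjusted p = 0.00493, and 0.0794 with all 18 arrays), whereas in WT cells the change was 0.62 (95% interval -0.40 to 1.64). The genotype difference for this probe set was not called at 12 h (1.42, adjusted p = 0.174) or 48 h (1.85, adjusted p = 0.135). The uninjured level was 5.44 ± 0.61 (SD, n = 2) in WT and 3.85 ± 0.28 (SD, n = 3) in Sdc4-/- cells, a difference that was not tested.

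A second Ccnd1 probe set, 1417420_at, separated the genotypes. It read 4.95 and 4.85 in WT uninjured arrays, 3.26, 3.28 and 2.36 at 12 h, and 4.03, 3.55 and 3.91 at 48 h. In Sdc4-/- arrays the values were 3.75, 3.47 and 3.16 when uninjured, 3.29, 3.22 and 3.34 at 12 h, and 5.39, 5.66 and 4.82 at 48 h. Among the arrays of the fit WT cells thus stood highest when uninjured and Sdc4-/- cells at 48 h, with no overlap between those groups and the others of their genotype. WT uninjured replicate 3, left out of the fit, read 3.26. At 12 h it fell by 1.93 in WT cells (SE 0.29, adjusted p = 0.000393) and the Sdc4-/- change was -0.17 (adjusted p = 0.756), with a genotype difference of 1.76 (SE 0.39, adjusted p = 0.0141) that was lost without WT uninjured replicate 1 (adjusted p = 0.0545). At 48 h the difference was 2.90 (SE 0.39, adjusted p = 0.00177), made of a WT change of -1.07 (adjusted p = 0.0331) and an Sdc4-/- change of 1.83 (adjusted p = 0.00165). The WT change was no longer called without any 1 of 4 WT arrays: both uninjured arrays and 48 h replicates 2 and 3 (adjusted p up to 0.169). The remaining Ccnd1 probe set, 1417419_at, had group means of 3.38 to 4.71 and was called in no comparison.

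**Figure D2:**
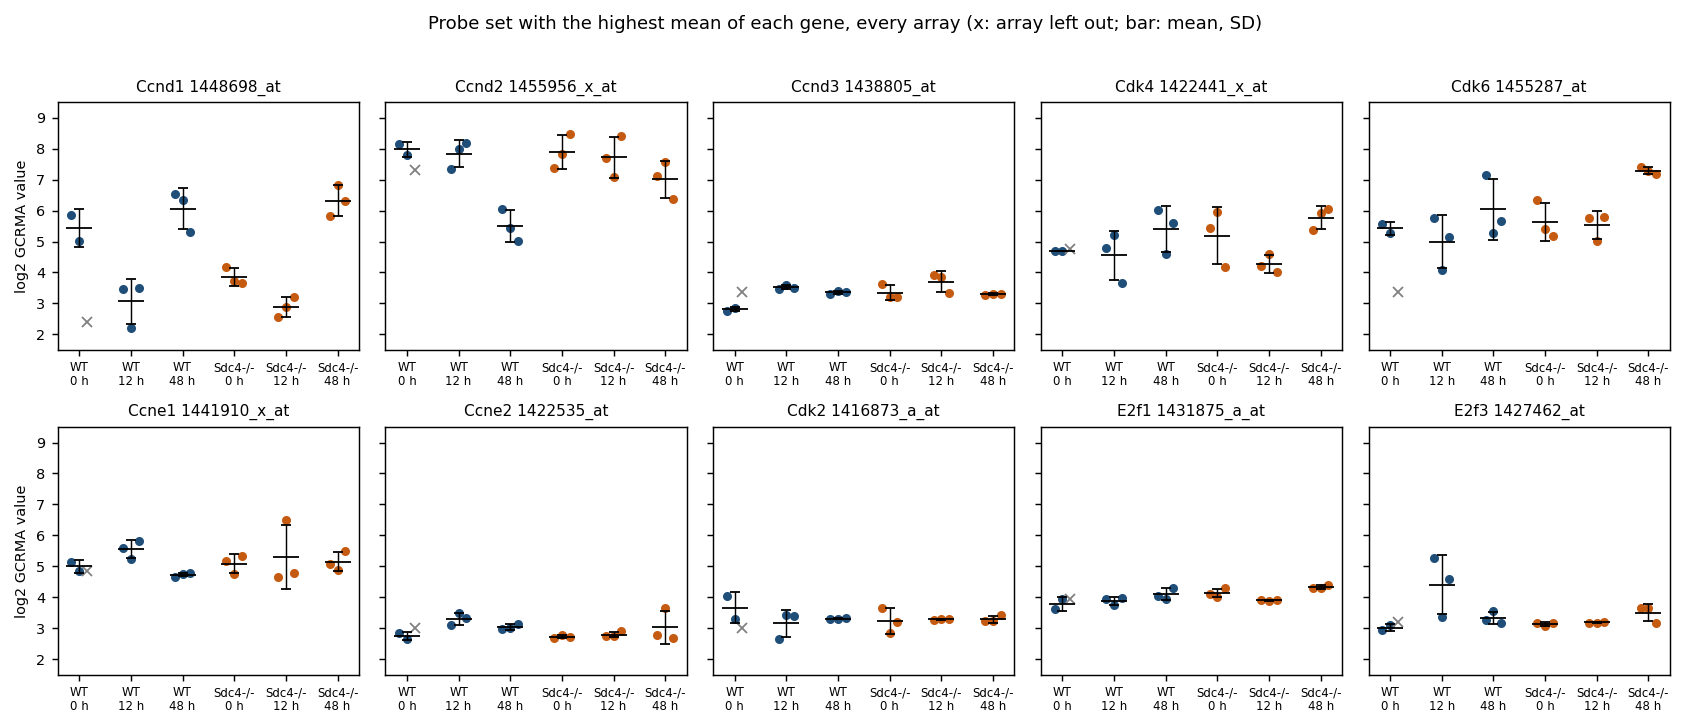
Log2 GCRMA value of the probe set with the highest mean of each gene in every array, by genotype (WT blue, Sdc4-/- orange) and time after injury (0 h is uninjured). Bars are group mean and SD and the cross is the WT uninjured array left out. Ccnd1 lies at 3.07 and 2.89 at 12 h and at 6.06 and 6.32 at 48 h in WT and Sdc4-/- cells, while Ccne2, Cdk2 and Ccnd3 stay below a group mean of 4 throughout.

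Ccnd2 encodes cyclin D2, another D cyclin, and its 7 probe sets disagreed. Its brightest, 1455956_x_at, read 8.15 and 7.80 in WT uninjured arrays, 7.35, 8.0 and 8.17 at 12 h, and 6.06, 5.45 and 5.02 at 48 h. Sdc4-/- arrays were at 7.38, 7.83 and 8.48 when uninjured, 7.69, 7.08 and 8.40 at 12 h, and 7.11, 7.57 and 6.37 at 48 h. Only the WT 48 h arrays stood apart, below all other 14 arrays of the fit. At 48 h it fell by 2.47 against uninjured WT cells (SE 0.47, adjusted p = 0.00517), and from 12 h to 48 h it fell by 2.33 (SE 0.42, adjusted p = 0.00335). The first of these calls was lost without WT uninjured replicate 1 (adjusted p = 0.0541) and after a further quantile normalization (adjusted p = 0.0540). The Sdc4-/- change at 48 h was -0.88 (95% interval -1.80 to 0.03) and the genotype difference of 1.58 was not called (adjusted p = 0.206). The suffix _x of this probe set marks probes that may also bind other transcripts.

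Other patterns appeared among the dimmer Ccnd2 probe sets. Probe set 1434745_at read 7.04 and 5.50 in WT uninjured arrays and between 2.36 and 3.32 in all 6 WT arrays after injury, changes of -3.53 at 12 h (SE 0.68, adjusted p = 0.00189) and -3.67 at 48 h (SE 0.68, adjusted p = 0.00442), the second of which was lost without WT uninjured replicate 1 (adjusted p = 0.0649). In Sdc4-/- cells it read 5.6, 6.06 and 6.09 when uninjured, 2.75, 2.85 and 5.26 at 12 h, and 3.44, 4.52 and 3.39 at 48 h. The Sdc4-/- change of -2.30 at 12 h was called (SE 0.61, adjusted p = 0.0434) but was lost without any 1 of 12 of the 17 arrays. Sdc4-/- 12 h replicate 3 stood above the remaining arrays of its group with this probe set, and more so with 1448229_s_at, where the values were 3.19, 2.89 and 6.53.

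That probe set, 1448229_s_at, read 6.38 and 6.33 in WT uninjured arrays and 2.56 to 3.24 in WT arrays after injury, while 1416122_at read 4.67 and 5.70 and then 2.94 to 3.02. Both fell at 12 h in WT cells, with changes of -3.43 (SE 0.84, adjusted p = 0.00764) and -2.18 (SE 0.25, adjusted p = 6.6e-05), and neither was called at 12 h in Sdc4-/- cells, whose uninjured means were 3.76 and 3.40. The genotype difference at 12 h was 3.87 for 1448229_s_at (SE 1.13, adjusted p = 0.0460), which was lost without any 1 of 13 arrays, and 1.74 for 1416122_at (SE 0.34, adjusted p = 0.00739). At 48 h the WT changes were -3.52 (adjusted p = 0.0171), lost without either WT uninjured array (adjusted p up to 0.101), and -2.21 (adjusted p = 0.000191). The genotype difference of 1416122_at at 48 h was 2.60 (SE 0.34, adjusted p = 0.00139). The opposite sign was seen for 1416124_at, which read 2.96 and 2.83 in WT uninjured arrays and 3.70, 4.05 and 4.70 at 12 h, a rise of 1.25 (SE 0.25, adjusted p = 0.00202), and 1416123_at, which was not called, had its highest group mean of 5.97 at 12 h in WT cells. The dimmest, 1430127_a_at, had group means of 2.54 to 3.23 and was called in no comparison. Pearson correlations between the Ccnd2 probe sets over the 17 arrays ranged from -0.59 to 0.71, so that no direction is given for the gene at 12 h, and the change of 1455956_x_at at 12 h in WT cells, -0.14 as deposited, turned to 2.02 after a further quantile normalization (adjusted p = 0.0182).

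**Figure D3:**
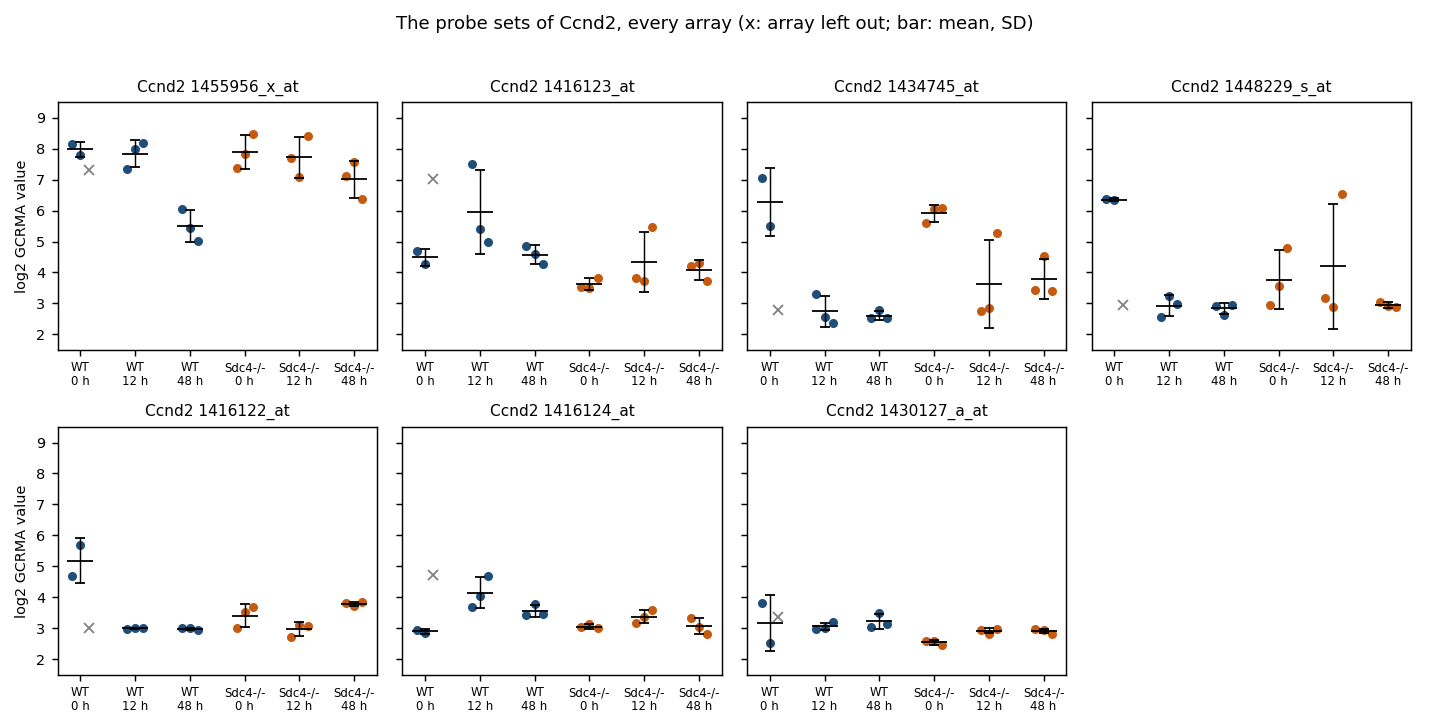
Log2 GCRMA value of the 7 Ccnd2 probe sets in every array, with groups, colors, bars and cross as in the plot of all genes. The 3 probe sets 1434745_at, 1448229_s_at and 1416122_at are high only in uninjured arrays among the WT arrays of the fit, 1416124_at is highest at 12 h in WT cells with a mean of 4.15, and 1455956_x_at is lowest at 48 h in WT cells with a mean of 5.51.

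Ccnd3, which encodes cyclin D3, the D cyclin that remains in differentiating muscle, was near background. Probe set 1438805_at read 2.76 and 2.86 in WT uninjured arrays, 3.47, 3.59 and 3.51 at 12 h, and 3.30, 3.40 and 3.37 at 48 h, whereas Sdc4-/- arrays spread from 3.19 to 3.93 over all times. The WT rise was 0.71 at 12 h (SE 0.16, adjusted p = 0.00514) and 0.54 at 48 h (SE 0.16, adjusted p = 0.0463), and the first was not called after a further quantile normalization (adjusted p = 0.0548) and the second without any 1 of 12 arrays. The remaining Ccnd3 probe sets had group means of 2.42 to 2.95 and were called nowhere.

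Among the cell type markers, several lists had calls in the same direction and WT comparisons as Ccnd1 and Ccnd2. At 12 h 4 of 7 endothelial, 3 of 6 fibroblast and 3 of 5 pericyte and smooth muscle markers were called lower, and at 48 h 5 of 7, 4 of 6 and 4 of 5. Of all 18194 genes 20.8% were called lower at 12 h and 9.39% at 48 h. The endothelial mean went from between 6.21 and 7.77 in WT uninjured arrays to between 3.12 and 4.67 at 12 h and between 3.06 and 3.78 at 48 h. In Sdc4-/- cells at 12 h 2 of 7, 0 of 6 and 1 of 5 of these markers were called lower, beside 7.23% of all genes. Satellite cell markers had 5 of 14 called lower and 1 higher at 12 h in WT cells, and 4 lower and 2 higher at 48 h. Of all genes 19.6% were called higher at 12 h and 5.47% at 48 h. The genotype difference of the satellite cell markers was called higher for 5 of 14 at 12 h and for 4 at 48 h, beside 6.32% and 3.64% of all genes. It was also called higher for probe sets of Ccnd1 and Ccnd2. Macrophage and monocyte markers had 4 of 10 called lower at 12 h in WT cells. The part of these markers in the D cyclin values was not tested.

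Cdk4 and Cdk6 are the kinases that D cyclins activate, and Cdk6 rose by 48 h in both genotypes. Probe set 1435338_at of Cdk6 read 4.48 and 3.71 in WT uninjured arrays, 3.87, 3.09 and 3.79 at 12 h, and 7.11, 6.63 and 6.08 at 48 h. Sdc4-/- arrays were at 4.67, 3.57 and 4.79 when uninjured, 3.80, 3.91 and 4.24 at 12 h, and 6.45, 7.05 and 6.31 at 48 h. All 6 of the 48 h arrays lay above all 11 others of the fit. The rise from 12 h to 48 h was 3.02 in WT cells (SE 0.37, adjusted p = 0.000214) and 2.62 in Sdc4-/- cells (SE 0.37, adjusted p = 0.00162), and from uninjured cells 2.51 (SE 0.42, adjusted p = 0.00231) and 2.26 (SE 0.37, adjusted p = 0.00413). All 4 calls remained with each array left out in turn, with all 18 arrays, and after either rescaling, and 3 of them with the hybridization controls as a covariate, where the WT change from uninjured cells was 1.86 (adjusted p = 0.360). The control means did not overlap between the WT groups, so that fit cannot separate the covariate from either WT change, kept or lost. The genotype difference in the 48 h change was -0.25, with a 95% interval from -1.47 to 0.97.

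The other bright Cdk6 probe set, 1455287_at, moved less. It read 5.58 and 5.28 in WT uninjured arrays, 5.77, 4.07 and 5.16 at 12 h, and 7.15, 5.28 and 5.68 at 48 h, so that the WT groups overlapped. The Sdc4-/- values were 6.33, 5.40 and 5.18, then 5.77, 5.0 and 5.80, and 7.41, 7.27 and 7.18 at 48 h. The Sdc4-/- 48 h arrays lay above all the other arrays of the fit, but the change from 12 h of 1.77 (SE 0.51) had an adjusted p of 0.0639 and that from uninjured cells of 1.65 an adjusted p of 0.101. The mean of the 3 Cdk6 probe sets was called at 48 h against 12 h in WT (1.38, adjusted p = 0.00172) and Sdc4-/- cells (1.41, adjusted p = 0.00256). The third probe set, 1460291_at, stayed between 2.34 and 2.96.

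With 2 of its 3 probe sets, 1422441_x_at and 1422439_a_at, the group means of Cdk4 were highest at 48 h in both genotypes. The remaining one, 1422440_at, had group means of 2.41 to 2.82 and was called in no comparison. Probe set 1422441_x_at read 4.70 and 4.69 in WT uninjured arrays, 4.78, 5.21 and 3.65 at 12 h, and 6.03, 4.59 and 5.61 at 48 h. In Sdc4-/- arrays it read 5.43, 5.97 and 4.18 when uninjured, 4.21, 4.60 and 4.03 at 12 h, and 5.37, 5.92 and 6.04 at 48 h. The 12 h and 48 h arrays overlapped in WT but not in Sdc4-/- cells, where the change of 1.5 (SE 0.50) had an adjusted p of 0.113. Probe set 1422439_a_at rose from 2.50, 2.83 and 2.54 at 12 h to 4.21, 4.65 and 4.51 at 48 h in Sdc4-/- cells (1.84, SE 0.39, adjusted p = 0.0149). That call was lost without Sdc4-/- 12 h replicate 1 or 48 h replicates 2 or 3 (adjusted p up to 0.0588). In WT cells it read 2.61 to 2.78 before 48 h and 3.65, 2.85 and 4.13 at 48 h, a change of 0.88 that was not called (adjusted p = 0.179). The correlation of 1422441_x_at and 1422439_a_at over the 17 arrays was 0.85.

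Macrophage and monocyte markers were called in the same interval and direction as Cdk6 and Ccnd1. From 12 h to 48 h 9 of 10 were called higher in WT cells, beside 9.27% of all genes, and the marker mean went from between 4.01 and 4.50 to between 9.46 and 9.65. In Sdc4-/- cells 3 of 10 were called higher, beside 7.61% of all genes, and the marker mean went from between 7.66 and 8.73 to between 9.72 and 9.80. Ccr2, a receptor of monocytes, was among the less expressed markers, with group means of 3.37 to 6.36, while Csf1r, the receptor for the macrophage growth factor, was at 11.44 to 14.15 in every group but WT 12 h (2.95). Their part in the 48 h rise of these genes was not tested.

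**Figure D4:**
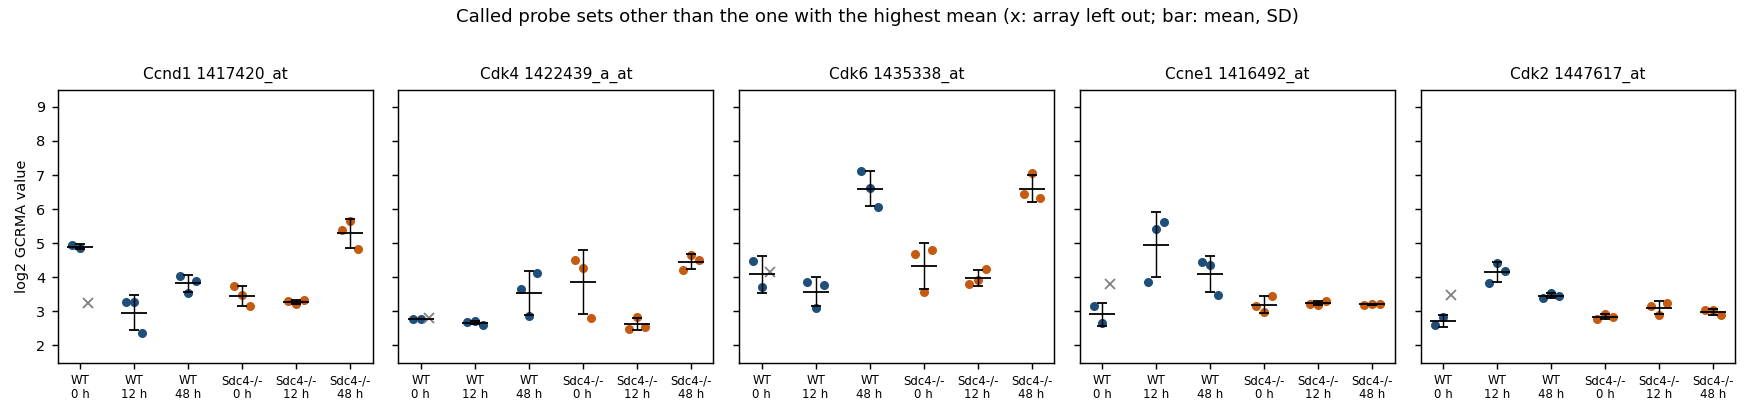
Log2 GCRMA value of the called probe sets that are not the brightest of their gene (Ccnd2 is plotted apart), with groups, colors, bars and cross as in the plot of all genes. Cdk6 1435338_at is at 6.61 and 6.60 at 48 h in WT and Sdc4-/- cells, whereas Ccne1 1416492_at and Cdk2 1447617_at are highest at 12 h in WT cells, at 4.96 and 4.15.

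Ccne1 and Ccne2 encode the E cyclins, which activate Cdk2 at the end of G1. Probe set 1416492_at of Ccne1 read 3.16 and 2.67 in WT uninjured arrays, 3.86, 5.41 and 5.62 at 12 h, and 4.44, 4.35 and 3.48 at 48 h. In all 9 Sdc4-/- arrays it read between 2.98 and 3.46. Every WT array after injury was above every Sdc4-/- array, and the WT 12 h arrays were all above the WT uninjured arrays. The WT rise at 12 h was 2.05 (SE 0.43, adjusted p = 0.00312), and the Sdc4-/- change was 0.04 (95% interval -0.79 to 0.88). The genotype difference at 12 h was -2.0 (SE 0.58, adjusted p = 0.0432), which was lost without any 1 of 14 of the 17 arrays (adjusted p up to 0.147). At 48 h the WT change was 1.18 with an adjusted p of 0.0963.

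The other Ccne1 probe set, 1441910_x_at, was brighter and less variable between groups. Its group means lay between 4.73 and 5.56, with 5.6, 5.24 and 5.83 in WT 12 h arrays above all other WT arrays, and with 1 Sdc4-/- 12 h array at 6.5 beside 4.64 and 4.78. It was called in no comparison as deposited, and after a further quantile normalization its 12 h change in WT cells was 2.61 (adjusted p = 0.000702). Ccne2 had 1 probe set, 1422535_at, which read 2.84 and 2.65 in WT uninjured arrays and 3.10, 3.48 and 3.33 at 12 h, a change of 0.56 (SE 0.22, adjusted p = 0.0690) close to background. All its other group means were between 2.72 and 3.04.

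Cdk2, the kinase partner of the E cyclins, was called with 1 of its 2 probe sets. Probe set 1447617_at read 2.60 and 2.85 in WT uninjured arrays, 3.83, 4.43 and 4.19 at 12 h, and 3.39, 3.54 and 3.46 at 48 h. Sdc4-/- arrays were at 2.78, 2.93 and 2.82 when uninjured, 3.17, 2.90 and 3.26 at 12 h, and 3.03, 3.05 and 2.89 at 48 h. The 3 WT groups did not overlap in the fit, with 12 h highest and uninjured lowest, and every WT array after injury was above every Sdc4-/- array. WT uninjured replicate 3, left out of the fit, read 3.47, within the WT 48 h values and above every Sdc4-/- array. The WT rise was 1.42 at 12 h (SE 0.15, adjusted p = 4.4e-05), and 0.74 at 48 h (SE 0.15, adjusted p = 0.00860), and from 12 h to 48 h it fell by 0.69 (SE 0.14, adjusted p = 0.00644). The Sdc4-/- change at 12 h was 0.26 (95% interval -0.04 to 0.56) and the genotype difference was -1.16 (SE 0.21, adjusted p = 0.00466). The call at 48 h was lost without WT uninjured replicate 1 (adjusted p = 0.0966), while the rise at 12 h and its genotype difference were called with each array left out in turn. With WT uninjured replicate 3 put back the rise at 12 h was called (1.18, adjusted p = 0.00206). The rise at 48 h (adjusted p = 0.258) and the genotype difference at 12 h (adjusted p = 0.139) were then not called.

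The brighter Cdk2 probe set, 1416873_a_at, gave the opposite sign. It read 4.03 and 3.31 in WT uninjured arrays and 2.64, 3.42 and 3.39 at 12 h, a change of -0.51 (SE 0.27, adjusted p = 0.148), and all its group means lay between 3.15 and 3.67. The mean of both probe sets changed by 0.46 at 12 h in WT cells (adjusted p = 0.0482), so that no direction is given for Cdk2 as a gene. The correlation of the 2 probe sets over the 17 arrays was -0.25.

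E2f1 and E2f3 encode activating E2F factors, whose targets include genes of DNA replication. Probe set 1427462_at of E2f3 read 2.93 and 3.11 in WT uninjured arrays, 5.27, 3.37 and 4.58 at 12 h, and 3.25, 3.55 and 3.18 at 48 h. In all Sdc4-/- arrays it read between 3.07 and 3.66. WT 12 h replicates 1 and 3 were above all other arrays of the fit, and replicate 2 lay within the range of the WT 48 h arrays. The rise at 12 h was 1.39 (SE 0.38, adjusted p = 0.0141), which was lost without either WT uninjured array (adjusted p up to 0.0864). The genotype difference of -1.34 was not called (adjusted p = 0.120). The other probe set, 1434564_at, read 3.27 and 3.06 in WT uninjured arrays and 3.26, 4.29 and 4.06 at 12 h, a change of 0.71 (adjusted p = 0.0729), with replicates 2 and 3 high in place of 1 and 3. The mean of the 2 probe sets differed between genotypes at 12 h by -0.83 (adjusted p = 0.0399).

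E2f1 was nearly flat. Probe set 1431875_a_at had group means between 3.77 and 4.33. Its change in Sdc4-/- cells from 12 h, at 3.92, 3.88 and 3.90, to 48 h, at 4.30, 4.29 and 4.39, was 0.43 (SE 0.11, adjusted p = 0.0461). The groups did not overlap, but the change was 0.00 after a further quantile normalization (adjusted p = 1.0) and was lost without any 1 of 11 arrays. The remaining E2f1 probe sets had group means of 2.44 to 3.23 and were not called.

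The E2F binding sequence was looked for in the promoters of these genes because E2F factors are members of the group and because Ccne1, Cdk2 and E2f3 each had a probe set called higher at 12 h in WT cells. The 250 bases upstream of a listed start were read from RefSeq (GRCm38.p6), 5′ to 3′ on the strand of the gene, for the 7 genes listed, with 2 starts each for Ccnd3 and E2f3. The letters searched on both strands were TTTCCCGC, TTTGGCGC, TTTCGCGC and TTTGCCGC, and no match overlapped another. Of 32851 promoters of this length 1.86% held a match to at least 1 of the 4. A match was found in 2 of the 9 promoters read, one of Cdk2 and one of E2f3, in each case GCGGGAAA, the opposite strand of TTTCCCGC, which alone was in 0.895% of all promoters. Ccnd2 and Ccnd3 also had a probe set called higher at 12 h in WT cells. Ccnd2 was not among the genes listed, and neither of the 2 starts of Ccnd3 had a match. The promoters of Ccne1, Cdk2 and E2f3 are printed with the match in capitals. The other listed start of E2f3 (chr13:29984392-29984641, minus strand) had no match and is not printed. That of Ccne1 (chr7:38107491-38107740, minus strand) holds none of these letters in this window. That of Cdk2 (chr10:128705052-128705301, minus strand) has it 140 to 133 bases before the start, and that of E2f3 (chr13:29986064-29986313, minus strand) 11 to 4 bases before it.
Ccne1: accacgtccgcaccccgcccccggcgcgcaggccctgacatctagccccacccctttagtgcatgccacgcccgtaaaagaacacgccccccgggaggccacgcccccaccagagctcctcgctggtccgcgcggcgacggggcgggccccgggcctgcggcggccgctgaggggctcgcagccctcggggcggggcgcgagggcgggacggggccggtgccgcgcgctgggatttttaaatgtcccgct
Cdk2: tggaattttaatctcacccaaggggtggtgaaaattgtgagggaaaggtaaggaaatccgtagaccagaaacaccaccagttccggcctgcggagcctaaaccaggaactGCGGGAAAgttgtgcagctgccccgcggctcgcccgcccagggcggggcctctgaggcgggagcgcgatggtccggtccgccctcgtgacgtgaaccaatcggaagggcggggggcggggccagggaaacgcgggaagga
E2f3: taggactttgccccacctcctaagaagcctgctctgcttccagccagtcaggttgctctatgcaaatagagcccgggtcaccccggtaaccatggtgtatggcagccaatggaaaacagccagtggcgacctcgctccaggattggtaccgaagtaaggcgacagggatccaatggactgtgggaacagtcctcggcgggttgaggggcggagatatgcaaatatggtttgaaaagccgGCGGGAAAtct
A match is a run of letters and not a measured site, and the array values do not bear on binding.

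**Figure D5:**
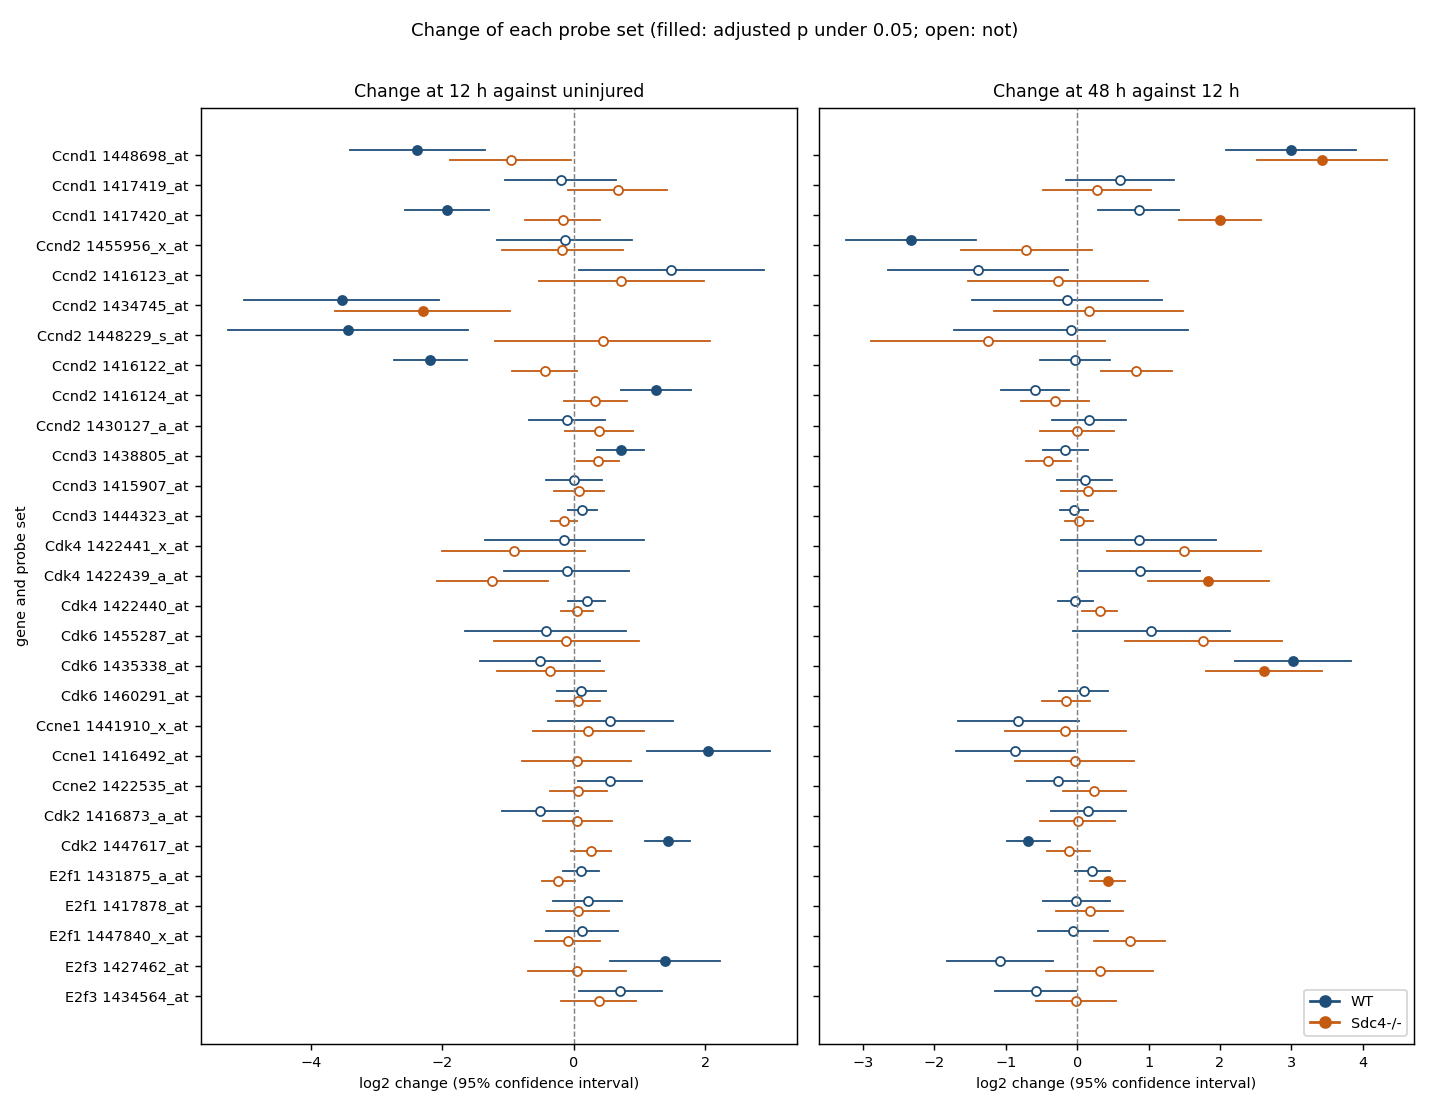
Log2 change of all 29 probe sets with its 95% confidence interval at 12 h against uninjured (left) and 48 h against 12 h (right), in WT (blue) and Sdc4-/- cells (orange), with filled points at an adjusted p under 0.05. At 12 h the filled WT points of Ccnd1 and of 3 Ccnd2 probe sets lie between -3.53 and -1.93 and those of Ccne1, Cdk2 and E2f3 between 1.39 and 2.05, and at 48 h Ccnd1 and Cdk6 are filled to the right in both genotypes.

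Of the 5 probe sets called higher in Sdc4-/- cells from 12 h to 48 h, the 2 called in WT cells (Ccnd1 1448698_at and Cdk6 1435338_at) were both included. At 48 h against uninjured 1 probe set, Cdk6 1435338_at, was called higher in both genotypes, of 3 in each. At 12 h 1 probe set was called lower in both, Ccnd2 1434745_at, of 5 in WT and 1 in Sdc4-/- cells. The share of all probe sets on the array called in both genotypes was not counted. Whether the genes described here shared more calls than the array as a whole was therefore not tested.

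The WT 12 h arrays had the highest hybridization controls and the fewest bright probe sets, and these values moved with every WT 12 h result. The control means were 13.54 to 14.30 in the WT 12 h arrays and 7.86 to 8.94 in the WT uninjured arrays. A fit with the control mean as a covariate therefore cannot separate it from the WT 12 h change. Far fewer of all 45101 probe sets were called at 12 h in WT cells under it. The calls lost there are thus not a result about the genes described here. With the mean of the hybridization controls as a covariate, 2 of the 10 WT 12 h calls remained, both of Ccnd2, with changes of -7.27 for 1434745_at (adjusted p = 0.0399), in place of -3.53, and of -8.29 for 1448229_s_at (adjusted p = 0.0461), in place of -3.43. The change of Ccnd1 1448698_at was -2.67 (adjusted p = 0.415), and the changes of Ccne1 1416492_at, Cdk2 1447617_at and E2f3 1427462_at were 1.07, 0.82 and 1.51 with adjusted p of 0.770, 0.384 and 0.610. Under that covariate the 12 h to 48 h rises of Ccnd1 1448698_at and Cdk6 1435338_at were called in both genotypes. Their adjusted p lay between 0.00286 and 0.0127. The control means of the WT 48 h arrays, 11.68 to 12.50, did not overlap those of the WT 12 h arrays. That fit therefore cannot separate the covariate from the WT rises either, and no conclusion is drawn from those WT calls.

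The partners of these genes in G1, a list of 30 inhibitors, pocket proteins, other E2F factors, their dimerization partners and regulators, had more genes called lower than higher at 12 h in WT cells. Of the 30, all measured, each by its brightest probe set, 7 were called lower and 1 higher, where 20.8% and 19.6% of all 18194 genes were, and the median change was -0.63 against 0.09 over all genes. The pocket protein Rb1 fell by 3.49 in WT cells (adjusted p = 0.00108) and its change in Sdc4-/- cells was -2.20 (adjusted p = 0.0328). Its relative Rbl1 fell by 2.96 in WT cells (adjusted p = 0.0110) and the related Rbl2 rose by 1.08 (adjusted p = 0.0160). The kinase inhibitors Cdkn1b and Cdkn2c, which encode p27 and p18, changed by -1.56 (adjusted p = 0.00398) and -1.82 (adjusted p = 0.0129). These 5 were named for their roles after their values were seen.

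Of the 4 partners with the highest mean, Cdkn1a, which encodes the inhibitor p21, had WT means of 8.27 ± 0.09 (SD, n = 2) uninjured, then 7.04 ± 2.55 and later 9.31 ± 0.25 (SD, n = 3 each), and was not called. Ccnh, the cyclin of the kinase that activates other CDKs, went from 8.69 ± 0.33 to 3.76 ± 0.35 and back to 10.65 ± 0.30 in WT cells, changes of -4.93 (adjusted p = 0.000420) and 6.90 (adjusted p = 3.2e-05). Ccnh in Sdc4-/- cells was at 9.65 ± 0.20, 8.20 ± 1.95 and 10.64 ± 0.25, and its genotype difference at 12 h was 3.49 (adjusted p = 0.0459). E2f5, a repressive E2F factor, was not called in any comparison. Cks1b, a small CDK-binding protein, rose by 3.65 from 12 h to 48 h in WT cells (adjusted p = 0.00970). From 12 h to 48 h 3 partners were called higher in each genotype beside 9.27% of all genes in WT and 7.61% in Sdc4-/- cells.

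Genes of DNA replication that E2F factors regulate were called in both directions at 12 h in WT cells. Of 30 listed genes 28 were measured, and at 12 h in WT cells 6 were called higher and 7 lower. The gene-level shares just given, 19.6% and 20.8%, are the background here too. Cdt1 and Mcm4, which license replication origins, changed by -3.30 (adjusted p = 0.00552) and -5.75 (adjusted p = 0.00284), and Mcm6, a further helicase subunit, fell by 2.83 (adjusted p = 0.0155). Mcm5, also a helicase subunit and named after its value was seen, rose by 2.00 (adjusted p = 0.0140). From 12 h to 48 h 5 were called higher and 1 lower in WT cells, beside 9.27% and 5.90% of all genes, and 22 were not called. Sdc4-/- cells had 8 of 28 called higher in that interval, beside 7.61% of all genes, with a median change of 1.67 against -0.03 over all genes. Mcm3 and Rrm1, a helicase subunit and a subunit of ribonucleotide reductase chosen after their values were seen, rose there by 2.19 (adjusted p = 0.00663) and 2.79 (adjusted p = 0.00361). Pcna, the sliding clamp of DNA polymerase, was bright in all groups, at 8.19 to 10.13, and was called in no comparison.

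Genes of G2 and mitosis were mostly near background. Of the 20 listed genes 19 were measured and 6 averaged 4 or more across the arrays of the fit. At 12 h in WT cells 7 were called higher and 2 lower, beside 19.6% and 20.8% of all genes, and at 48 h 3 were called higher against uninjured cells, beside 5.47%. For Sdc4-/- cells limma called 0 of 19 in either direction at 12 h, with 4 higher and 2 lower at an unadjusted p under 0.05 and 0 without moderation, and 1 was called higher at 48 h against uninjured cells, beside 2.65% of all genes. Mki67, a marker of cycling cells, had WT means of 5.53 ± 0.45 (SD, n = 2) uninjured, then 4.62 ± 1.20 and later 8.96 ± 0.40 (SD, n = 3 each), a rise of 3.43 from uninjured cells (adjusted p = 0.00941). Its Sdc4-/- means were 6.60 ± 0.67, 8.53 ± 1.18 and 7.17 ± 0.57 (SD, n = 3 each), and no change was called. Top2a, the mitotic topoisomerase, and Cdc20, an activator of the anaphase-promoting complex, were not called, and Tpx2, a spindle protein, fell by 4.46 at 12 h in WT cells (adjusted p = 0.0347).

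Among all other genes the patterns most like that of Ccnd1 1448698_at over the 17 arrays were those of Dcun1d5, Naa20 and Ndufa3, with Pearson r of 0.91, 0.90 and 0.88. For Ccnd2 1455956_x_at they were C730049O14Rik, Pdlim1 and Kitl, with r of 0.87, 0.84 and 0.83. These 2 genes had the widest range of group means of the 10, at 3.43 and 2.47. The arrays of a group share their sort and their depth of signal, and the correlations are a description with no test.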

How the data were processed

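RNA of sorted satellite cells was hybridized to Affymetrix mouse genome arrays, 18 in all. The log2 values were deposited by the authors after GCRMA background correction and normalization, with GCOS for intensities, and their versions are not given in the sources used here. The study left out 1 WT uninjured array that clustered with the WT 12 h arrays, taken here to be replicate 3, and 17 arrays were fitted. Of 45101 probe sets the platform annotation gave 34958 a single symbol, 932 several and 9211 none. The deposited values were used without rescaling. All groups entered 1 limma fit (version 3.58.1, R 4.3.3) with 11 residual and 1.2 prior degrees of freedom, 8 contrasts were taken, and p-values were adjusted by Benjamini-Hochberg over all probe sets. Intervals are 95% intervals of that fit. The number of arrays, low signal near background and differences between arrays in their controls all limit the precision. The fit was tested on simulated data.

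For a listed gene that is no member the probe set with the highest mean over the 17 arrays stood for the gene, the 4 brightest genes of each list were named, and others are marked where chosen later. The members and all lists were chosen with earlier results of these data known. Promoter sequences came from RefSeq (GRCm38.p6). Plots were drawn with matplotlib 3.10.9. Alternatives were all 18 arrays, each array left out, only the groups compared, other variance models, further quantile normalization, a shift by the 75th percentile, a filter at a mean of 4, the mean of a gene's probe sets and a replicate block. A fit with the hybridization-control mean as a covariate was added after seeing the data.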

Additional observations from a re-analysis of the deposited data

Results flagged for a closer look

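The change after injury differed between Sdc4-/- and WT cells, by the interaction contrast of the limma fit, for 7 probe set and time combinations, each given as Sdc4-/- minus WT on the log2 scale. At 12 h the difference was 1.76 for Ccnd1 (1417420_at, adjusted p = 0.0141), 3.87 for Ccnd2 (1448229_s_at, adjusted p = 0.0460) and 1.74 for Ccnd2 (1416122_at, adjusted p = 0.00739), where the WT value fell and the Sdc4-/- value was not called. At 12 h it was -2.0 for Ccne1 (1416492_at, adjusted p = 0.0432) and -1.16 for Cdk2 (1447617_at, adjusted p = 0.00466), where the WT value rose and the Sdc4-/- value was not called. At 48 h it was 2.90 for Ccnd1 (1417420_at, adjusted p = 0.00177) and 2.60 for Ccnd2 (1416122_at, adjusted p = 0.00139). All 7 rest on the 2 WT uninjured arrays, none was called with replicate 3 put back, and genotype and strain cannot be told apart in them. The uninjured means of Ccnd1 1417420_at, Ccnd2 1448229_s_at and Ccnd2 1416122_at were 4.90, 6.35 and 5.19 in WT cells. In Sdc4-/- cells they were 3.46, 3.76 and 3.40, closer to background. The part of these uninjured levels in the genotype differences was not tested. At 12 h the means were 2.97, 2.93 and 3.00 in WT and 3.29, 4.20 and 2.96 in Sdc4-/- cells.

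The WT uninjured array that was left out stood apart from the other uninjured WT arrays in 2 Ccnd2 probe sets by over 1 on the log2 scale on the high side. It read 7.03 with 1416123_at, where the others read up to 4.68, and 4.72 with 1416124_at, where the others read up to 2.96. On the low side it was over 1 below both other arrays in 6 probe sets, among them all 5 that were called lower at 12 h in WT cells. For Ccnd1 it read 2.40 with 1448698_at, where the lower of the others was 5.01, and 3.26 with 1417420_at, against 4.85. For Ccnd2 it read 2.78 with 1434745_at, against 5.50, 2.95 with 1448229_s_at, against 6.33, and 3.0 with 1416122_at, against 4.67. For Cdk6 it read 3.36 with 1455287_at, against 5.28.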

How the results depend on the processing

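The numbers of called probe sets, of 29, were recomputed under each alternative. In the order WT 12 h, WT 48 h, WT 12 h to 48 h, the same for Sdc4-/- cells, and the genotype differences at 12 h and 48 h, the reported counts were 10, 8, 4, 1, 3, 5, 5 and 2. Counts that moved by more than 1.5 times were as follows. With all 18 arrays WT 12 h had 5, WT 48 h 2, and Sdc4-/- 12 h and both genotype differences 0. With only the groups compared in the fit WT 12 h had 6, WT 12 h to 48 h 1, Sdc4-/- 12 h 0, Sdc4-/- 12 h to 48 h 8, and the genotype differences 3 and 4. Without moderation Sdc4-/- 12 h had 0. After further quantile normalization WT 48 h had 5, WT 12 h to 48 h 7, Sdc4-/- 12 h 0 and the 12 h genotype difference 3. After the shift by the 75th percentile WT 48 h had 16, Sdc4-/- 12 h 8 and the 12 h genotype difference 3. Over the whole array this shift raised the median by 0.11 to 0.34 in 6 comparisons and changed it by -0.20 for Sdc4-/- 12 h to 48 h and by -0.18 for the 48 h genotype difference. With a filter that kept a mean of 4 or more, WT 12 h had 2, WT 48 h 3 and the genotype differences 0. With the hybridization-control covariate, added after seeing the data, WT 12 h had 2, WT 48 h 3, WT 12 h to 48 h 2, Sdc4-/- 12 h to 48 h 3, and the genotype differences 1 and 0. The control means did not overlap between the WT groups, so that fit cannot separate the covariate from the WT changes or the genotype differences. With 1 array left out the counts ranged from 10 to 11, 3 to 8, 4 to 8, 0 to 2, 3 to 4, 3 to 6, 2 to 5 and 2 to 3, in the same order. The cause of these movements was not tested, apart from fewer arrays or probe sets entering some fits.

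Same-numbered samples of different groups did not deviate together (r from -0.13 to 0.17), so the numbers were not taken to pair samples. With the replicate block the counts were 10, 8, 5, 0, 4, 7, 4 and 2. Of 2180 values of single genes under the alternatives 88 had the opposite sign. In 2 of them the value with the turned sign was called: Ccnd2 at 12 h in WT cells changed by 2.02 after further quantile normalization in place of -0.14, and Cdk2 there by 0.46 as the mean of its probe sets in place of -0.51. The other 86 were not called, among them Cdk4 (1.11, adjusted p = 0.328) and Cdk6 (1.02, adjusted p = 0.292) at 12 h in WT cells after further quantile normalization. The low signal of probe sets near background limits Ccnd3, Ccne2, Cdk2, E2f1 and E2f3 most.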
